A study of Homo sapiens with 6 samples.

Results

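Complexes II, III and IV of the respiratory chain, cytochrome c and ATP synthase (complex V) were followed at the mRNA level in the human chondrocyte line TC28a2, which is immortalised. The genes were taken by symbol: SDHA to SDHD, CYC1, CYCS, COXFA4 (formerly NDUFA4), and every protein-coding gene whose symbol starts with UQCR, with COX and a digit, or with ATP5. This gave 65 of the 28395 gene rows of the count table, namely 4 genes of complex II, 10 of complex III, 1 for cytochrome c, 30 of complex IV (9 of them assembly factors) and 20 of complex V. Cells received either a control vector or a vector for overexpression of ZEB1, a transcription factor best known for repressing epithelial genes, and RNA was taken 48 h later from 3 libraries per vector. Both groups are this 1 line after transfection, and the labels name no other allele or agent. Neither the promoter of the vectors nor the share of cells that took them up is given in the sources used here.

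The respiratory chain moves electrons from NADH and succinate to oxygen and pumps protons, and ATP synthase uses the proton gradient to make ATP. Complex II (succinate dehydrogenase) also belongs to the tricarboxylic acid cycle, complex III passes electrons from ubiquinol to cytochrome c, and complex IV (cytochrome c oxidase) passes them to oxygen. The catalytic core of complex IV and a few subunits of complexes III and V are encoded in mitochondrial DNA, and the other subunits are nuclear genes whose products are imported. Cartilage cells live at low oxygen and are known to rely strongly on glycolysis.

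The control libraries held 5359200 to 5878640 counts and the ZEB1 libraries 1277632, 1621270 and 3316228 in replicates 1, 2 and 3. ZEB1 itself had 32.6, 20.8 and 21.4 CPM (counts scaled to library totals that TMM factors adjust) in control libraries and 12267, 14047 and 6894 CPM in ZEB1 replicates 1, 2 and 3. Of the 17 chondrocyte markers, SOX9 was present at 54.2 to 82.9 CPM in control libraries and 61.1 to 78.2 CPM under ZEB1. ACAN and COL2A1, which define cartilage matrix, had 13 and 11 counts over all 6 libraries. All 16 chondrocyte markers other than SOX9 failed the filter on low counts, and COL9A1, CNMD and CHAD had no count. The 6 epithelial markers summed to at most 3.83 CPM in any library, with KRT5 at 0. The 6 endothelial markers summed to 32.9 to 48 CPM in control libraries and 37.3 to 61.1 CPM under ZEB1. Most of this was EGFL7, with means of 40.7 and 43.5 CPM, while PECAM1 had 1.44 and 5.94 CPM. The 6 striated muscle markers summed to 66.1 to 98.8 and 54.7 to 107 CPM, mostly TNNT1, with means of 79 and 76.7 CPM. The other 4 endothelial and 5 muscle markers did not pass the filter on low counts. The part of these other cell types' genes in the results was not tested. The labels do not say whether replicates are separate cultures, so the spread behind each p-value may be technical only.

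Of the 65 genes, 54 passed the filter on low counts and were tested. The remaining 11 were COX1, COX2 and COX3 of the mitochondrial genome, 6 tissue-restricted paralogs of complex IV subunits, the gene copy ATP5MGL and the readthrough gene ATP5MF-PTCD1. The table had rows for 37 genes of the mitochondrial genome, and all of them were listed at 0 in every library, so the mitochondrially encoded subunits are not described. The paralogs COX4I2, COX6A2, COX7A1, COX7B2 and COX8C, which are known from lung, heart, skeletal muscle or testis, also had no count in any library. A floor of 3 counts was 0.51 to 0.56 CPM in control libraries and 2.35, 1.85 and 0.905 CPM in ZEB1 replicates 1, 2 and 3. COX6B2, the testis form of COX6B, had 1 count in control replicate 2, 6 in ZEB1 replicate 2 and none elsewhere. ATP5MGL had 3, 8 and 5 counts in control libraries and 4, 0 and 4 under ZEB1.

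Transcription of nuclear respiratory genes is known to depend on NRF1, on GABPA and other ETS factors, and on YY1. Because these genes are described here as a set that was higher together, the windows around their transcription starts are shown for the gene of each complex with the smallest p and the gene with the lowest fold change, where RefSeq's table had a window for it. Each window runs from 250 bases before to 50 bases after the start, 5′ to 3′ on the strand of the gene, and comes from RefSeq (GRCh38.p14). Capitals mark a match on either strand to GCGCATGC (NRF1), CCGGAAG (GABPA and other ETS factors), AAGATGGC (YY1) or CACCTG, the E-box that ZEB1 is known to bind. The ETS and YY1 motifs can overlap by the letters AAG, and the NRF1 motif can overlap its own reverse complement. The windows are those of SDHB (chr1:17053983-17054282, minus strand), SDHA (chr5:218070-218369, plus strand), UQCRQ (chr5:132866392-132866691, plus strand), UQCRC1 (chr3:48609597-48609896, minus strand), COX7B (chrX:77899218-77899517, plus strand), COX15 (chr10:99732078-99732377, minus strand) and ATP5F1C (chr10:7787927-7788226, plus strand).
SDHB: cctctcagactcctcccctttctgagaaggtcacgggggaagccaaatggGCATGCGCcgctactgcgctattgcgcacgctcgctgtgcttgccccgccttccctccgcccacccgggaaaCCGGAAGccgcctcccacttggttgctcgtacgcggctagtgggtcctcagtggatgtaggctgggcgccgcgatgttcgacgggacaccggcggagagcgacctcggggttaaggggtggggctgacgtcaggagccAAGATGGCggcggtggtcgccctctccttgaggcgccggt
SDHA: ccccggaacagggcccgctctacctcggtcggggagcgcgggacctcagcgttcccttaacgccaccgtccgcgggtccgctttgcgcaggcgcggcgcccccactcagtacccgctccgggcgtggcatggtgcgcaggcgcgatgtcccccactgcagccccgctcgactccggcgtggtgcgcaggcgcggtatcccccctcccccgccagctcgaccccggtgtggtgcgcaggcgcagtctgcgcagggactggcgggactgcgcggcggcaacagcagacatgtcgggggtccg
UQCRQ: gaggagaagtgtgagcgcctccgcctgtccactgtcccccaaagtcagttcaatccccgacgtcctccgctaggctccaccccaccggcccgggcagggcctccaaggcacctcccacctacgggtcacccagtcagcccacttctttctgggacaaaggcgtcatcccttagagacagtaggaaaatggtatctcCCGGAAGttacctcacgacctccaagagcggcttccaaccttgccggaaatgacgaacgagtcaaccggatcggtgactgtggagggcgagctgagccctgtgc
UQCRC1: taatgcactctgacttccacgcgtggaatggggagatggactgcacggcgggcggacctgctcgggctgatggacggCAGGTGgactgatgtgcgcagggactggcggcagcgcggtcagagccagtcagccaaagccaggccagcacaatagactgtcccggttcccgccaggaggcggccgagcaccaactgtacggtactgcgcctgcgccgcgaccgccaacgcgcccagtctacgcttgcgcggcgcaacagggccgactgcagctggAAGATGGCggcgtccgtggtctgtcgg
COX7B: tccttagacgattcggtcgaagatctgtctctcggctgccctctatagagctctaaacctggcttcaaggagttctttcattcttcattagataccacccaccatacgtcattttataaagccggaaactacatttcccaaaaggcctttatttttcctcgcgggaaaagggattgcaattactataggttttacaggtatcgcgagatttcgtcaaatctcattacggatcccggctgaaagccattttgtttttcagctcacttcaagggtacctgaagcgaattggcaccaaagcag
COX15: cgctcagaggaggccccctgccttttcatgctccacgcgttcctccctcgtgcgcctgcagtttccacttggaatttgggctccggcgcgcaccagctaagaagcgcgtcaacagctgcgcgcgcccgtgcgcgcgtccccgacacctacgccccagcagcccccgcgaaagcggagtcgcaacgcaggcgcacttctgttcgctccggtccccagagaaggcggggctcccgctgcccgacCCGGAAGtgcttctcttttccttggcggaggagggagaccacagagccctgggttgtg
ATP5F1C: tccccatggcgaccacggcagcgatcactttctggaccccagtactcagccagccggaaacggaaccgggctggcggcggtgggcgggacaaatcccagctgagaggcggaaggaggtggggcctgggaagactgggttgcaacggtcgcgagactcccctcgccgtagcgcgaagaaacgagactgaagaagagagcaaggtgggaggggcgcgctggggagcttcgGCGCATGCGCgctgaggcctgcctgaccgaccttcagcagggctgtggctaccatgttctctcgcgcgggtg

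SDHB held an NRF1, an ETS and a YY1 match, UQCRQ and COX15 an ETS match, UQCRC1 a YY1 match and an E-box, and ATP5F1C a palindromic site read as NRF1 on both strands. SDHA and COX7B held none of the 4 motifs in these windows. A window was at hand for 44 of the 54 tested genes, with 54 windows in all because some genes have several starts. The NRF1 motif was in 13 of these 54 windows (24.1%), against 3.77% of 21644 windows of protein-coding genes. The ETS motif was in 22 (40.7%, against 13%) and the YY1 motif in 7 (13%, against 3.58%). The E-box was in 11 windows (20.4%), close to its share of 19.8% among all protein-coding windows. The 54 windows belong to genes that passed the filter on low counts, while the 21644 include protein-coding genes that did not. The sets compared are therefore unlike in expression. These matches describe the letters only and were not set against binding data, and their relation to the fold changes was not tested.

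Respiratory mRNAs lay above the controls more often than below them with the ZEB1 vector, with the lowest medians by role in the core of complex III and the F1 head of ATP synthase. The roles were assigned after the values were seen, and differences between them were not tested. The log2 fold change of ZEB1 vector against control was above 0 in 48 of the 54 tested genes, with a median of 0.50, a lowest value of -0.42 (COX15) and a highest of 1.05 (COX7B), while the median of all 11329 tested genes was -0.01. With library size as the only scaling, COX5A and COX18 were also at or below 0, which left 46 above it. In edgeR's quasi-likelihood test with Benjamini-Hochberg adjustment over all tested genes, 0 of the 54 passed an adjusted p of 0.05, where 0.00883% of all tested genes passed. The smallest adjusted p among them was 0.161. Without adjustment, 38 of the 54 had a p under 0.05 (9.40% of all tested genes did), and these 38 were higher (5.83% of all tested genes) with 0 lower (3.57%). Their log2 fold changes ran from 0.36 to 1.05. In edgeR 3 genes (SDHA, UQCRC1 and COX15) were lower at that p without ZEB1 replicate 3, and 1 (UQCRC1) with library size as the only scaling. In 18 genes all 3 ZEB1 libraries lay above all 3 controls, against 6.96% of all tested genes, and in 0 they lay below, against 8.16%. Genes of the set varied together across libraries, so these counts are not that many independent results.

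**Figure D1:**
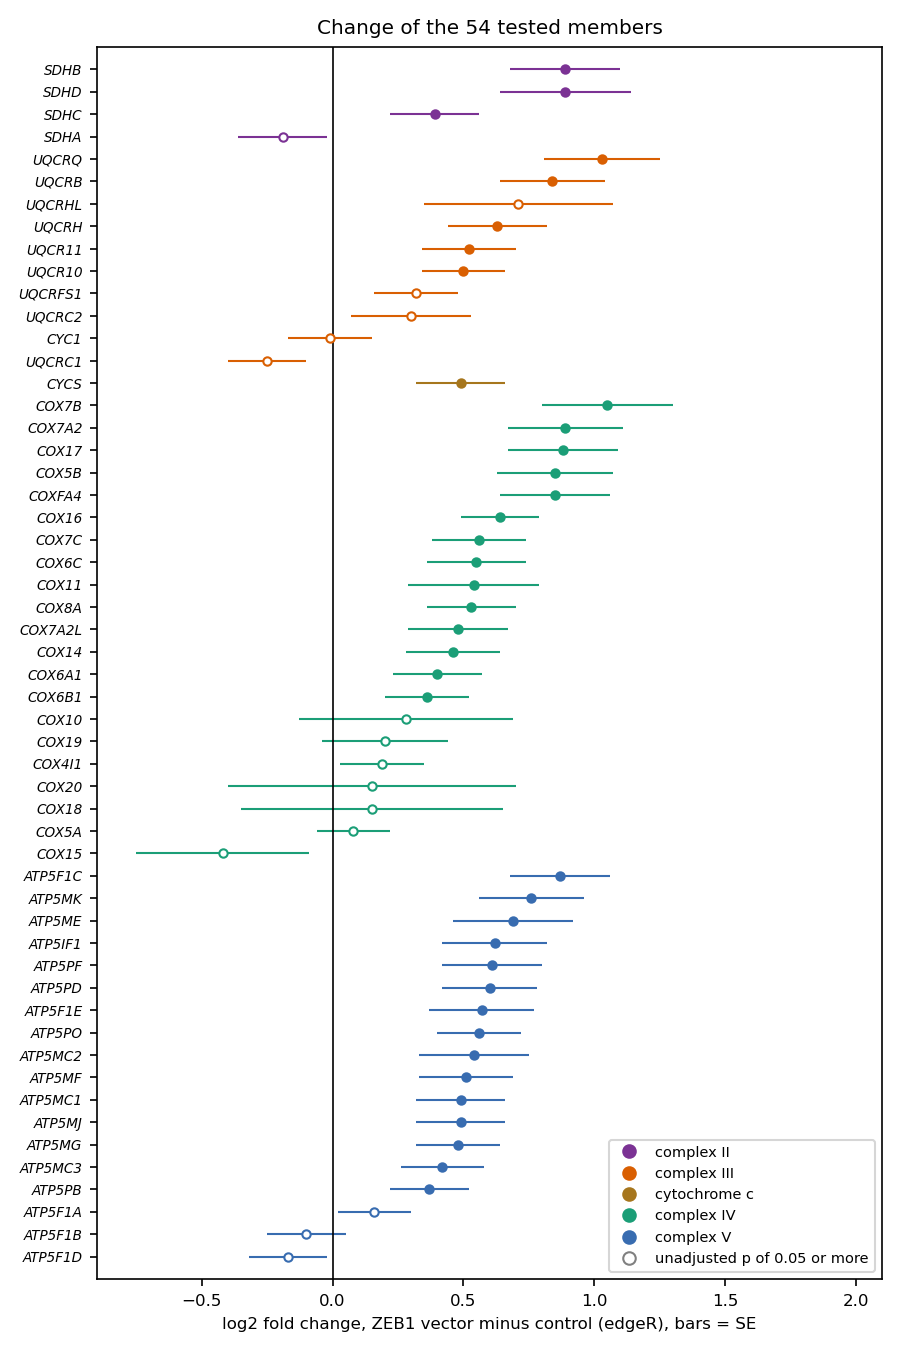
Log2 fold change (horizontal axis, ZEB1 vector minus control vector, edgeR) of each of the 54 tested genes, with bars for the approximate standard error, grouped by complex and ordered by value. Filled points have an unadjusted p under 0.05; 48 of the 54 points lie right of 0, and SDHA, CYC1, UQCRC1, COX15, ATP5F1B and ATP5F1D lie left of it.

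The other tools made calls among these genes. DESeq2 called 18 of the 54, all higher, against 1.41% of all tested genes called higher and 0.124% lower, and gave no adjusted p for 8. It gave none for 9005 of the 11329 tested genes either, and of the 2324 with one it called 6.88% higher and 0.602% lower. Limma-voom called 8, all higher, against 0.477% higher and 0.0353% lower, and limma-voom with sample quality weights called 18, all higher, against 1.27% higher and 0.0883% lower. The 7 genes that passed all 3 were SDHB, UQCRB, UQCRQ, COX5B, COX7A2, COXFA4 and ATP5F1C. The edgeR count rested on ZEB1 replicate 3: without that library, 29 of the 54 passed, all higher, against 2.40% higher and 0.984% lower among the genes tested there, and they included those 7. With no filter on low counts edgeR called 13, all higher, against 0.600% higher and 0.0928% lower of 18319 genes.

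The ZEB1 libraries were not alike. The median of the 54 genes, as log2 CPM relative to the control mean, was 0.79, 0.53 and 0.14 in ZEB1 replicates 1, 2 and 3 and -0.12, 0.12 and -0.01 in control replicates 1, 2 and 3. ZEB1 replicate 1 lay above the highest control in 47 of the 54 genes, replicate 2 in 45 and replicate 3 in 20. The shares of all tested genes are not given here, so these counts lack a background. Above the control mean of log2 CPM lay 48, 48 and 46 of the 54 in ZEB1 replicates 1, 2 and 3. Of all 11329 tested genes 5279, 5552 and 5799 did. Together the 65 genes took 2.05% of all counts in ZEB1 replicate 1 (95% Wilson interval 2.03% to 2.08%), 1.80% in replicate 2 (1.77% to 1.82%) and 1.47% in replicate 3 (1.45% to 1.48%). In control replicates 1, 2 and 3 they took 1.31% (1.30% to 1.32%), 1.51% (1.5% to 1.52%) and 1.39% (1.38% to 1.40%), so ZEB1 replicate 3 lay within the control range. These intervals and the floors cover counting error only. Replicates 1 and 2 were the shallowest libraries and also those with the most ZEB1. These 2 features of the libraries cannot be told apart here. With all libraries thinned to 1277632 counts the median was 0.51. In a bulk sample, more RNA per cell and more cells that carry it cannot be told apart.

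**Figure D2:**
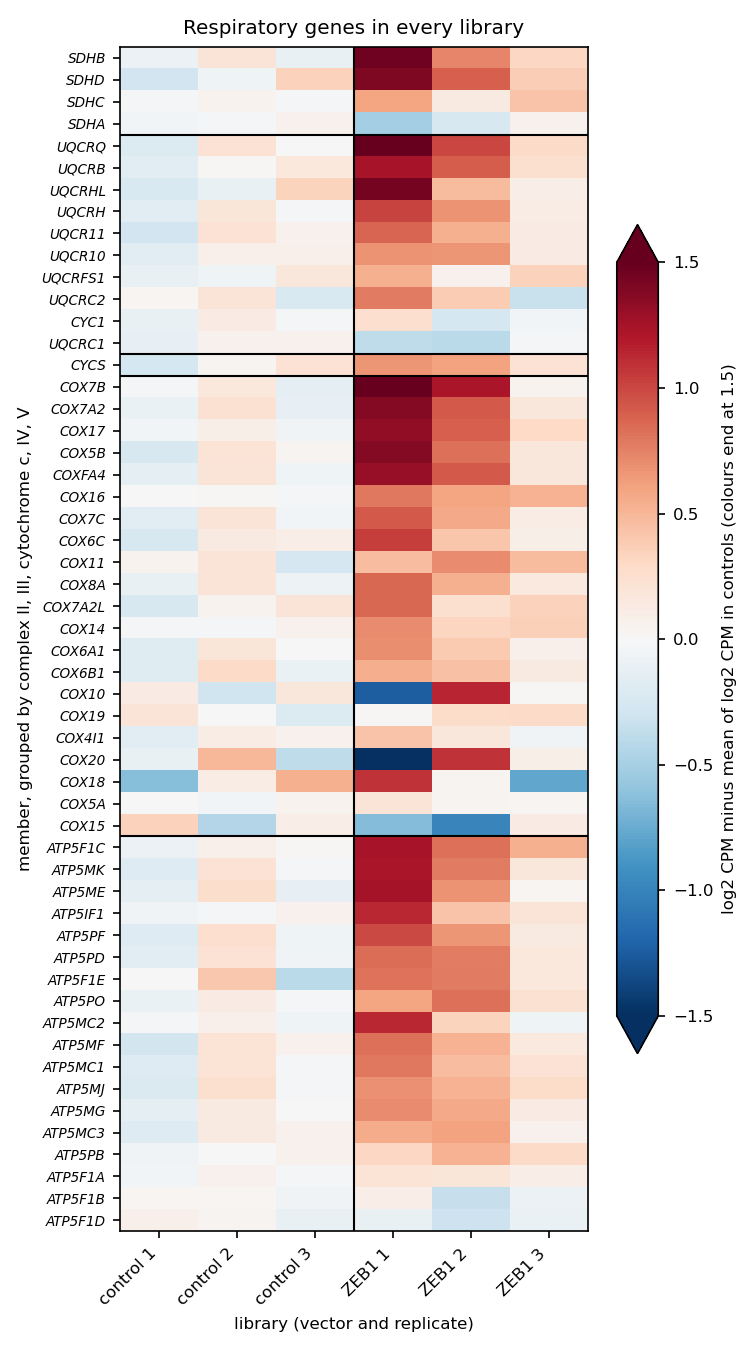
Log2 CPM of the 54 tested genes (rows, grouped by complex) in the 6 libraries (columns), each relative to the mean of log2 CPM in the 3 controls; red is higher, blue lower, and colours end at 1.5. Red fills most of the columns of ZEB1 replicates 1 and 2, where 47 and 45 genes lay above every control, and is pale in replicate 3, where 20 did. The shares of all tested genes that did so are not given here.

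Complex II has 4 subunits, and they did not move alike. SDHB, the iron-sulphur subunit (Entrez 6390), had 161, 196 and 159 CPM in control replicates 1, 2 and 3 and 470, 284 and 212 CPM in ZEB1 replicates 1, 2 and 3. All ZEB1 libraries were above all controls, with a mean of 322 ± 133 against 172 ± 20.7 CPM (SD, n = 3), a log2 fold change of 0.89 (SE 0.21) and an edgeR adjusted p of 0.174. SDHD, a membrane anchor, had 35.6, 41.6 and 55.3 CPM in control libraries and 115, 81 and 56 CPM under ZEB1. Its groups just failed to overlap, since ZEB1 replicate 3 was level with control replicate 3, and the log2 fold change was 0.89 (SE 0.25), or 0.56 with trends with transcript length and GC content removed. SDHC, the other anchor, had 91.3, 96.8 and 91.1 CPM and 140, 102 and 125 CPM, which did not overlap either (log2 fold change 0.39, SE 0.17, and 0.01 with these trends removed). The value with trends removed rests on an uncertain transcript length of 460 nucleotides for SDHC. SDHA, the flavoprotein that oxidises succinate, had 138, 139 and 149 CPM in control libraries and 100, 120 and 148 CPM under ZEB1. It was lowest in the library where SDHB was highest, with a log2 fold change of -0.19 (SE 0.17). Pseudogene rows of SDHA held 21.8% as many counts as SDHA, so how reads were split between the copies makes its value uncertain.

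In complex III the 6 small subunits had a median log2 fold change of 0.67 and the 4 core and redox subunits one of 0.15. With length and GC trends removed these medians were 0.56 and 0.19. UQCRQ, a small subunit bound near cytochrome b, had 255, 342 and 293 CPM in control libraries and 874, 590 and 360 CPM under ZEB1. Its means were 297 ± 44.0 and 608 ± 258 CPM (SD, n = 3), with a fitted fold of 2.04, no overlap and a log2 fold change of 1.03 (SE 0.22, edgeR adjusted p 0.161), or 0.60 with length and GC trends removed. UQCRB had 350, 401 and 440 CPM and then 935, 742 and 468 CPM, again without overlap (log2 fold change 0.84, SE 0.20, edgeR adjusted p 0.161). UQCRB has a pseudogene row with 9.56% as many counts. UQCRH, the acidic hinge protein between cytochromes c1 and c, had 325, 409 and 356 CPM and 732, 575 and 391 CPM, where ZEB1 replicate 3 fell among the controls (0.63, SE 0.19, and 0.24 with these trends removed). Its intronless copy UQCRHL had 15.7 to 23.3 CPM and 49.8, 25.7 and 19.7 CPM (0.71, SE 0.36), and reads of such near-identical copies may be shared. UQCR10 had 311, 367 and 366 CPM and 553, 550 and 379 CPM (0.50, SE 0.16, and 0.23 with these trends removed). UQCR11, the most counted gene of this complex, had 614, 872 and 780 CPM and 1368, 1079 and 814 CPM (0.52, SE 0.18), with replicate 3 inside the control range.

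Of the small subunits 5 were higher at an unadjusted p under 0.05, UQCRHL being the exception, and of the core and redox subunits 0 were, against 5.83% of all tested genes. The core values lay on both sides of 0. UQCRC1, a core protein, had 427, 487 and 486 CPM in control libraries and 359, 352 and 461 CPM under ZEB1. Replicates 1 and 2 were below every control, and the log2 fold change was -0.25 (SE 0.15). CYC1, cytochrome c1, had 375, 440 and 400 CPM and 482, 337 and 393 CPM, with values on both sides of the controls and a log2 fold change of -0.01 (SE 0.16). UQCRC2 was at 0.30 (SE 0.23) and the Rieske iron-sulphur protein UQCRFS1 at 0.32 (SE 0.16), and UQCRFS1 had an unadjusted p of 0.0418 with length and GC trends removed.

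CYCS, cytochrome c itself, which carries electrons from complex III to complex IV and triggers the apoptosome when released, had 135, 166 and 188 CPM in the controls. With the ZEB1 vector it had 256, 245 and 188 CPM, so that replicate 3 equalled the highest control. This gave a log2 fold change of 0.49 (SE 0.17, edgeR adjusted p 0.310).

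**Figure D3:**
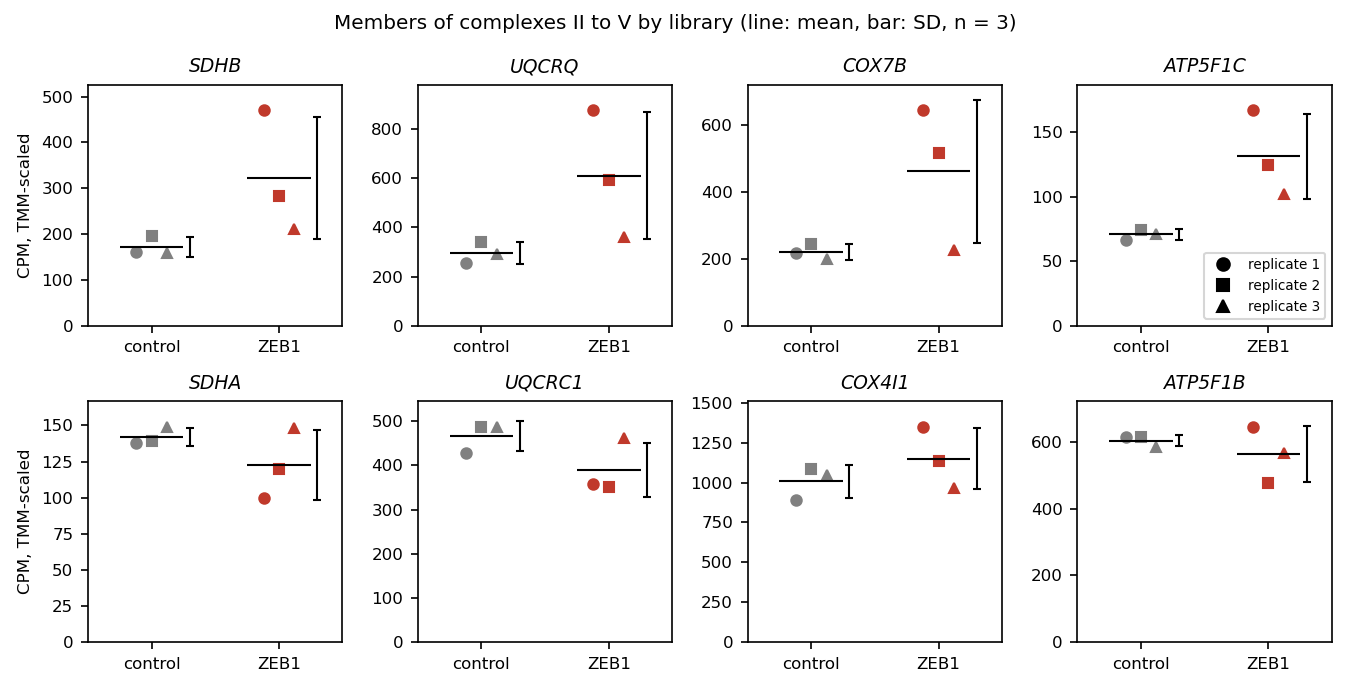
TMM-scaled CPM (vertical axes, from 0) of 8 genes in the 3 control (grey) and 3 ZEB1 (red) libraries; symbols are replicates, lines means and bars SD. In the upper row SDHB, UQCRQ and ATP5F1C have every ZEB1 library above every control and COX7B has replicate 3 among the controls; in the lower row the groups overlap for SDHA, UQCRC1, COX4I1 and ATP5F1B.

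In complex IV all 12 tested nuclear subunits had a log2 fold change above 0, with a median of 0.54, and 10 of them were higher at an unadjusted p under 0.05, against 5.83% of all tested genes. With library size as the only scaling 11 of the 12 were above 0, the exception being COX5A. COX7B, a small membrane subunit, had 218, 246 and 199 CPM in control libraries and 645, 516 and 228 CPM under ZEB1. It was above all controls in ZEB1 replicates 1 and 2 and inside the control range in replicate 3 (log2 fold change 1.05, SE 0.25, edgeR adjusted p 0.161), and 0.43 with length and GC trends removed. COX7A2, the form of COX7A found in most tissues, had 385, 484 and 381 CPM and 1079, 781 and 465 CPM, with the same overlap (0.89, SE 0.22, and 0.56 with these trends removed). COX5B, which binds zinc on the matrix side, had 355, 485 and 431 CPM and 1090, 745 and 472 CPM (0.85, SE 0.22). COXFA4, long counted as a complex I subunit, had 180, 227 and 190 CPM and 488, 374 and 222 CPM (0.85, SE 0.21). Thus in each of these 4 genes replicates 1 and 2 were above all controls and replicate 3 was not.

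The subunits that contact the mitochondrially encoded core on its regulatory side, COX4I1 and COX5A, were nearest to 0. COX4I1, the most counted gene of the complex, had 891, 1086 and 1046 CPM in control libraries and 1348, 1132 and 966 CPM under ZEB1 (0.19, SE 0.16). COX5A had 272 to 289 CPM and 284 to 320 CPM (0.08, SE 0.14). The other 6 subunits, COX6A1, COX6B1, COX6C, COX7C, COX8A and the supercomplex factor COX7A2L, lay between 0.36 and 0.56.

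The 9 assembly factors of complex IV were tested as well, and 8 of them had a log2 fold change above 0, with a median of 0.28. With length and GC trends removed their median was 0.32, and that of the 12 nuclear subunits was 0.27. COX17, the copper chaperone, had 78.4, 85.3 and 77.7 CPM in control libraries and 202, 150 and 98.9 CPM under ZEB1. The groups did not overlap, and the log2 fold change was 0.88 (SE 0.21, edgeR adjusted p 0.174), or 0.46 with length and GC trends removed. COX16, which acts in the assembly of COX2, had 127, 129 and 126 CPM and 220, 192 and 183 CPM, with ZEB1 replicate 3 close to replicate 2 and no overlap (0.64, SE 0.15, edgeR adjusted p 0.176). COX16 is overlapped by the readthrough gene SYNJ2BP-COX16, so reads may be shared. COX11 and COX14 also had all ZEB1 libraries above all controls (0.54, SE 0.25, and 0.46, SE 0.18). The haem A synthesis genes COX10 and COX15 had few counts. COX15, with 22, 24 and 112 counts in ZEB1 replicates 1, 2 and 3, was at 39, 22.6 and 32.8 CPM and 19.5, 15.4 and 33.4 CPM (-0.42, SE 0.33). COX10 had 10, 72 and 71 counts in ZEB1 replicates 1, 2 and 3, and COX20 had 2, 36 and 39, and the SEs of their log2 fold changes were 0.41 and 0.55.

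Of ATP synthase, the F1 head and central stalk, which carry catalysis, had a median log2 fold change of 0.16 over 5 genes, 2 of them higher at an unadjusted p under 0.05. The c ring had a median of 0.49 over 3 genes, the peripheral stalk 0.58 over 4 and the small membrane subunits 0.51 over 5, and each of these 12 genes was higher at that p, against 5.83% of all tested genes. With length and GC trends removed, the head was at 0.17, the c ring at 0.44, the peripheral stalk at 0.30 and the small membrane subunits at 0.27. ATP5F1C, the gamma subunit that rotates within the head, had 66.6, 74.4 and 71.5 CPM in control libraries and 167, 125 and 102 CPM under ZEB1. No library overlapped, with means of 70.8 ± 3.95 and 131 ± 33.1 CPM (SD, n = 3), a log2 fold change of 0.87 (SE 0.19) and an edgeR adjusted p of 0.161. ATP5F1B, the catalytic beta subunit and the most counted gene of the complex, had 613, 613 and 583 CPM and 644, 476 and 566 CPM (-0.10, SE 0.15). The delta subunit gene ATP5F1D had 281, 273 and 246 CPM and 247, 214 and 249 CPM (-0.17, SE 0.15). ATP5F1A, the alpha subunit, was at 0.16 (SE 0.14) with its libraries narrowly apart, 256 to 276 CPM against 282 to 303 CPM. ATP5F1E, the epsilon subunit and the other head gene with an unadjusted p under 0.05, was at 0.57 (SE 0.20) with overlap.

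ATP5MK, a small membrane subunit that helps ATP synthase form dimers, had 185, 246 and 209 CPM in control libraries and 496, 363 and 238 CPM under ZEB1 (0.76, SE 0.20, edgeR adjusted p 0.215, and 0.27 with length and GC trends removed). The peripheral stalk genes ATP5PO, which encodes the oligomycin sensitivity protein, and ATP5PD followed. ATP5PO had 196, 229 and 206 CPM and 317, 371 and 245 CPM, without overlap (0.56, SE 0.16). ATP5PD had 117, 153 and 127 CPM and 235, 223 and 147 CPM, with replicate 3 among the controls (0.60, SE 0.18, and 0.18 with these trends removed). The 3 genes of the c ring, ATP5MC1, ATP5MC2 and ATP5MC3, which encode the same mature protein, had log2 fold changes of 0.49, 0.54 and 0.42. ATP5IF1, which inhibits ATP hydrolysis by the enzyme, had 142, 145 and 154 CPM and 323, 197 and 168 CPM, all ZEB1 libraries above all controls (0.62, SE 0.20, and 0.27 with these trends removed).

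Baseline levels are given as CPM and per kilobase of transcript, because the part of a transcript that these libraries read is not given here. Where reads come only from an end of the transcript, counts do not grow with length and CPM are the measure to compare. In the controls COX4I1 was highest either way, with a mean of 1008 CPM and 1415 CPM per kilobase. By CPM, UQCR11 (755) and ATP5F1B (603) followed, and per kilobase COX8A (1166) and ATP5MF (1075). In complex II the order by CPM was SDHB 172, SDHA 142, SDHC 93 and SDHD 44.2. Per kilobase it was SDHC 202, SDHB 149, SDHA 62.6 and SDHD 50. The length used for SDHC was 460 nucleotides, a median over transcripts that may be of unlike length. Its place per kilobase is therefore uncertain. Among the tested genes the assembly factor COX20 was lowest by CPM (11.2) and COX18 per kilobase (3).

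Fold change and transcript length moved together. Over the 54 tested genes the log2 fold change had a Pearson's r of -0.39 and a Spearman's rho of -0.41 with log10 transcript length, and over 11140 tested genes with a length -0.14 and -0.15. These correlations run across genes of the same 6 libraries, and genes are not independent replicates. The median transcript length was 1110 nucleotides for the 54 genes and 2800 for all tested genes. Between 500 and 750 nucleotides the median log2 fold change was 0.35 over 319 other genes, of which 85% were above 0, and 0.54 over 16 respiratory genes. Between 3000 and 5000 nucleotides it was -0.06 over 3012 other genes and 0.39 over 8 respiratory genes, all 8 of them above 0, among them UQCRB, CYCS, ATP5MC3 and ATP5F1E. After each library's trends with transcript length and GC content were removed, an alternative chosen after seeing the data, the median of the 54 genes was 0.27, with 47 above 0 and 21 higher at an unadjusted p under 0.05, against 4.61% of all genes. None was lower at that p, against 2.93%, and 0 passed the adjusted threshold, against 0.0180% of all genes called higher. UQCRB, SDHB, COXFA4 and ATP5F1C then had log2 fold changes of 0.76, 0.75, 0.75 and 0.64. Of the 38 genes higher at an unadjusted p under 0.05, 23 had a value over 1.5 times that with trends removed. COX7B then had 0.43, UQCRQ 0.60, COX7A2 0.56, SDHD 0.56, COX17 0.46 and ATP5MK 0.27. ATP5MF had 0.03 and SDHC 0.01. These values rest on lengths of 314.5 and 460 nucleotides, medians over transcripts of each gene. How well such lengths match the transcripts expressed here was not tested.

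**Figure D4:**
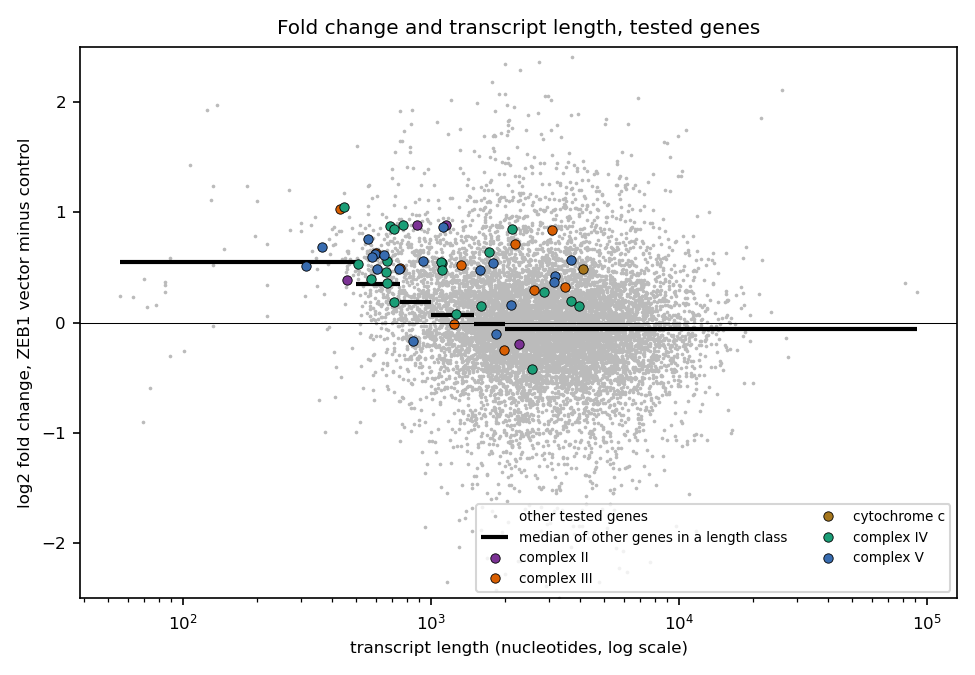
Log2 fold change (vertical axis) against transcript length in nucleotides (horizontal axis, log scale) for tested genes with a length; grey points are other genes, black lines their medians in length classes, and coloured points the 54 respiratory genes. The black lines fall from 0.55 in the shortest class to -0.06 above 2000 nucleotides; 36 genes beyond 2.5 on the vertical axis are not drawn.

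Related mitochondrial genes gave the following values, side by side and without a test of the differences. Complex I structural subunits had a median log2 fold change of 0.46 over 37 tested genes, 29 of them above 0 and 23 higher at an unadjusted p under 0.05, where 5.83% of all tested genes were higher and 3.57% lower. Mitochondrial ribosomal proteins had 0.27 over 76, with 26 higher and 2 lower at that p. Cytosolic ribosomal proteins, which are not mitochondrial, had 0.48 over 79, with 54 higher. Per library these 3 groups followed the order of the respiratory genes, with medians of 0.77, 0.43 and 0.11 for complex I in ZEB1 replicates 1, 2 and 3. The 13 tested enzymes of the tricarboxylic acid cycle outside succinate dehydrogenase had a median of 0.10, among them MDH2 at -0.15, IDH3B at -0.14 and SUCLA2 at 0.62. The 14 markers of mitochondrial mass had 0.12, among them the chaperonin HSPD1 at 0.07, the chaperone HSPA9 at -0.16 and the import channel TIMM23 at 0.39. In both lists 0 genes had an unadjusted p under 0.05 in edgeR. With library size as the only scaling these medians were -0.03 and -0.02, that of the respiratory genes 0.36 and that of all genes -0.14. The median transcript length was 2020 nucleotides for the cycle enzymes and 1996 for the mass markers, against 1110 for the respiratory genes. With length and GC trends removed, the medians were 0.07 for the cycle enzymes, 0.05 for the mass markers and 0.27 for the respiratory genes. Those of complex I, mitochondrial ribosomal and cytosolic ribosomal proteins were then 0.26, 0.19 and 0.26.

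**Figure D5:**
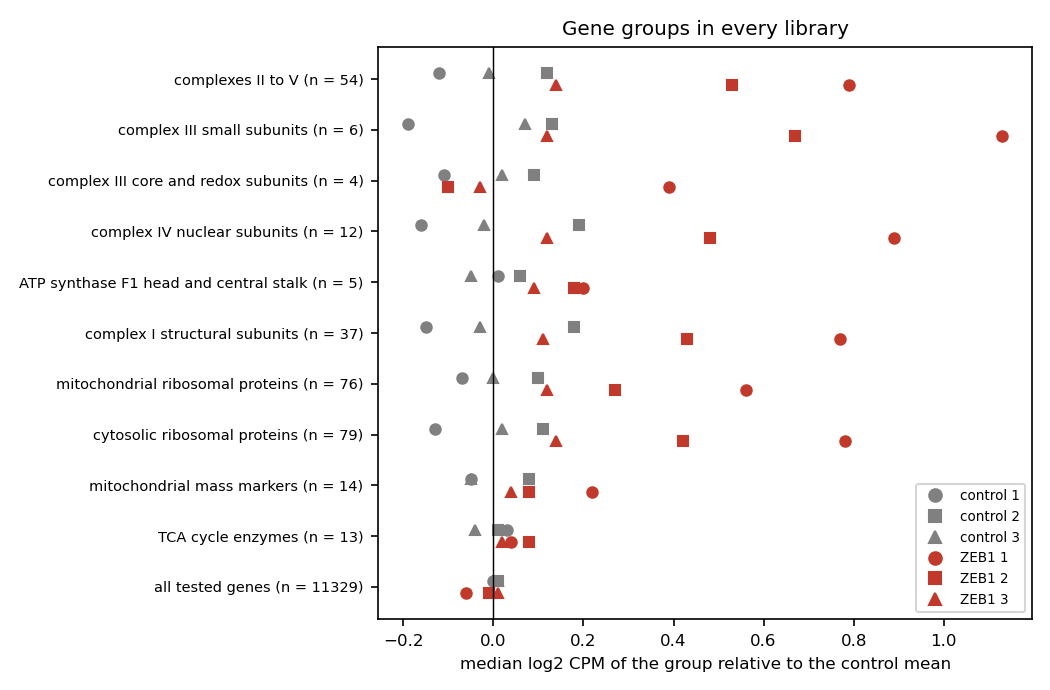
Median log2 CPM relative to the control mean (horizontal axis) of gene groups in each of the 3 control (grey) and 3 ZEB1 (red) libraries; symbols are replicates and n is the number of tested genes. For complexes II to V the ZEB1 values are 0.79, 0.53 and 0.14 in replicates 1, 2 and 3, and those of the tricarboxylic acid cycle enzymes stay at or below 0.08.

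Genes that build or regulate these complexes were taken from lists. Of 23 tested assembly and expression factors of complex IV, 5 lay higher and 1 lay lower with an unadjusted p under 0.05 in edgeR, against 5.83% and 3.57% of all tested genes. The median log2 fold change of the 23 was 0.22, and 0.04 with length and GC trends removed. SLIRP, which stabilises mitochondrial mRNA, had 646 ± 100 CPM in control libraries and 1185 ± 498 CPM under ZEB1 (SD, n = 3), with overlap between the groups and a log2 fold change of 0.87 (SE 0.22). LRPPRC, its binding partner, had 86.4 ± 8.88 and 55.2 ± 14.5 CPM (SD, n = 3), with all ZEB1 libraries below all controls and a log2 fold change of -0.63 (SE 0.22). PET100, an assembly chaperone of complex IV, had a log2 fold change of 0.47 (SE 0.18).

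Among 9 complex III assembly factors 2 were higher and 1 lower at that p, against the same 5.83% and 3.57%. BCS1L, the AAA protein that inserts the Rieske subunit, had 68.1 ± 11.1 CPM in control libraries and 34.9 ± 10.6 CPM under ZEB1 (SD, n = 3). All ZEB1 libraries lay below all controls, and the log2 fold change was -0.92 (SE 0.25, edgeR adjusted p 0.215). UQCC2, which is needed to make cytochrome b, was above all controls with a log2 fold change of 0.57 (SE 0.17), and UQCC5 had 0.29 (SE 0.22). The 4 complex II assembly factors had 0 genes at that p, with SDHAF2 at -0.22, SDHAF1 at -0.54 and SDHAF4 at 1.13 (SE 0.56). The 7 tested ATP synthase assembly factors and relatives also had 0, with TMEM70 at 0.07, ATPAF1 at 0.28 and TMEM242 at 0.50.

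Of the carriers that feed ATP synthase, the phosphate carrier SLC25A3 had a log2 fold change of 0.29 (SE 0.15). The adenine nucleotide carriers SLC25A5 and SLC25A6 had 0.39 (SE 0.16) and -0.03 (SE 0.14), and SLC25A5 was the carrier with an unadjusted p under 0.05 in edgeR. Regulators of respiratory gene transcription (13 tested) showed a median of -0.15, and -0.28 when scaled by library size alone, with 0 at an unadjusted p under 0.05 in edgeR. TFAM, which activates transcription of mitochondrial DNA and packages it, had 130 ± 2.14 and 156 ± 3.83 CPM (SD, n = 3), with all ZEB1 libraries above all controls and a log2 fold change of 0.26 (SE 0.15). GABPA had 22.1 ± 6.41 and 13.6 ± 1.94 CPM (SD, n = 3), with all ZEB1 libraries below (-0.69, SE 0.37), and YY1 was at 0.07 (SE 0.21). NRF1, with a mean of 52.7 counts, had 14.7 ± 2.45 and 8.42 ± 4.27 CPM (SD, n = 3). All its ZEB1 libraries also lay below all controls (-0.74, SE 0.45). None of the genes on these lists passed an edgeR adjusted p of 0.05.

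Annotation limits some of these values. Of the 54 tested genes 13 are overlapped by another gene of the table, among them UQCRQ by GDF9, ATP5MK by TAF5, ATP5PD by KCTD2 and ATP5MF by ATP5MF-PTCD1, and the strand setting of the counting is not given in the sources used here.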

How the data were processed

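Total RNA was profiled by DRUG-seq, a multiplexed RNA-seq, in 6 libraries of TC28a2 cells, 3 per vector. The authors deposited raw counts per Entrez gene, and the submitters' processing notes name HISAT2, Subread, featureCounts and GRCh38 without versions. No annotation release, strand setting or use of molecular identifiers is given in the sources used here. RefSeq (GRCh38.p14) named 27745 of 28395 IDs.

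For the tests, edgeR 4.0.16 (R 4.3.3) fitted the raw counts by quasi-likelihood, with robust estimation, TMM scaling, the filterByExpr filter, group as the only term, two-sided, with Benjamini-Hochberg adjustment over 11329 genes. CPM are TMM-scaled, with a prior count of 2 for log2 CPM, and approximate standard errors were derived from F. Transcript lengths are medians over GENCODE v29 transcripts paired with curated RefSeq mRNAs, or over the gene's coding transcripts where none is paired. Such a median need not be the length of the transcript expressed here, so per-kilobase and trend-removed values of single genes are uncertain. For UQCRHL it was 2180 nucleotides, although its gene runs only from 15807374 to 15807649 on chromosome 1. Alternatives were other scalings and filters, thinning, a replicate block, left-out libraries, DESeq2 1.42.0, limma-voom (limma 3.58.1) with and without sample quality weights, and removal of length and GC trends by loess. On counts simulated at these library totals with 200 genes changed, edgeR recovered 23% of genes changed 2-fold among 11387 tested, with 1 false call. Of those changed 4-fold it recovered 96.5% among 11393, with 8 false calls. The changed genes had a mean count of at least 20, and genes were drawn independently with the same spread. The libraries here differed within the ZEB1 group and genes varied together, so these rates may not carry over.

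The genes, lists and roles were chosen with earlier results of these data known. Values in every library are given for complex II, CYCS and CYC1, and in complexes III, IV and V for the 4 genes with the smallest p, the most counted one and the one with the lowest fold change. From each list the 2 most counted genes and the one with the smallest p are named. Other genes were named after their values were seen. The result of 1 list of cell type markers is not reported here.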

Additional observations from a re-analysis of the deposited data

How the results depend on the processing

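The direction of the set held under every alternative run: the median log2 fold change of the tested genes ranged from 0.34 to 0.64 when each library was left out in turn, and was 0.36 with library size as the only scaling, 0.27 with length and GC trends removed and 0.12 without ZEB1 replicates 1 and 2 together, where the lone ZEB1 library is assumed to vary like the controls. The number past an adjusted p of 0.05, 0 in edgeR, was 0 to 29 on leaving out single libraries (29 without ZEB1 replicate 3), 13 with no filter on low counts, 18 with DESeq2, 8 with limma-voom and 18 with quality weights. The number at an unadjusted p under 0.05, 38 in edgeR (against 9.40% of all tested genes), was 23 to 41 on leaving out single libraries. It was 23 without control replicate 1, and 41, of which 38 higher and 3 lower, without ZEB1 replicate 3. With library size as the only scaling it was 28 (27 higher and 1 lower). With trends removed it was 21, all higher, against 4.61% of all genes. For the other alternatives the share of all tested genes at that p is not given here, so their counts lack a background. The number with all ZEB1 libraries above all controls, 18, was 19 to 42 on leaving out single libraries. Of all tested genes 9.47% to 17.1% then lay above, against 6.96% with all libraries. The number was 35 without control replicate 2 (11.4% of all tested genes) and 42 without ZEB1 replicate 3 (17.1%). Leaving out single libraries put 0 to 3 genes below all controls, with 3 without ZEB1 replicate 3, against 20.3% of all tested genes. With library size as the only scaling 13 lay above (4.31% of all tested genes) and 2 below (12.5%). The cause of these shifts was not tested.

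Of 432 single-gene comparisons over 24 genes, 364 kept direction and side of the threshold, 56 passed it and 12 changed sign. CYC1, at -0.01, was at 0.01 with RLE factors, upper-quartile factors, DESeq2 and a mean count of at least 20, 0.08 with trends removed, and ran from -0.15 to 0.10 when each library was left out, with a change of sign without ZEB1 replicate 3 (0.00), control replicate 2 (0.05) or ZEB1 replicate 2 (0.10). Without ZEB1 replicates 1 and 2 together SDHA was at 0.06, COX15 at 0.08 and COX4I1 at -0.07, and COX4I1 was at -0.02 with trends removed.

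With the replicate number as a block, 34 genes had an unadjusted p under 0.05 in edgeR, and the share of all tested genes is not given here. The adjusted threshold was passed by 0, where 1 of 11329 tested genes passed, and the median was 0.49. Same-numbered libraries correlated at -0.032, -0.009 and 0.009 in their deviations from the group means, and 0 of 6 libraries correlated best with their own number.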
